A study of Homo sapiens with 18 samples.

Results

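The genes described are 28 proteins of the small (40S) ribosomal subunit, chosen by symbol as the small-subunit proteins without an expressed paralog, out of 17017 gene symbols in the counts. They are RPSA, RPS2, RPS3, RPS3A, RPS4X, RPS6, RPS7, RPS9, RPS10, RPS12, RPS13, RPS14, RPS15, RPS15A, RPS16, RPS18, RPS19, RPS20, RPS21, RPS23, RPS24, RPS25, RPS26, RPS27A, RPS28, RPS29, FAU and RACK1. The rule uses symbols only, and all 28 had counts and passed the filter on low counts in every fit. The cells were MDA-MB-231, an established line of triple-negative breast carcinoma. All of them had been transduced with a lentiviral pLKO.1 hairpin vector and kept in puromycin. In the SC group the hairpin is read as the scramble control, and in the SH2 and SH3 groups it was directed against fibrillarin mRNA. The protocol speaks of knockdown 1 and knockdown 2 without tying these names to SH2 or SH3. Before lysis all cells received cycloheximide, which holds ribosomes in place on their mRNAs. From each treatment there were 3 libraries of input cytoplasmic RNA (IN) and 3 of ribosome-protected footprints (RPF), the latter from RNase I digests whose monosomes were separated on sucrose gradients.

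The small subunit joins its proteins to 18S ribosomal RNA, scans the mRNA for the start codon and holds the decoding site. Its proteins are made in near-equal numbers from mRNAs that mostly begin with a C and a run of pyrimidines, the terminal oligopyrimidine (TOP) start, through which their translation is switched together, for example by mTOR signalling and LARP1. Fibrillarin is the methyltransferase of box C/D nucleolar particles, which place ribose methyl groups on ribosomal RNA, and several introns of ribosomal protein genes encode the guide RNAs of these particles. Proteins of the body are largely assembled before those of the head, and loss of many of the single members halts maturation of 18S RNA.

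The library labels were checked on fibrillarin (FBL) itself. With SC its RNA stood at 388 ± 36.4 CPM (counts per scaled library size; SD, n = 3). With SH2 it was 5.67 ± 5.09 CPM and with SH3 3.49 ± 0.612 CPM, and neither hairpin overlapped SC. Total counts were 23469830 to 27629488 in the IN libraries and 1662705 to 6098648 in the RPF libraries. Of the line's markers, VIM, CD44, AXL, CAV1 and KRT18 were present, with VIM at 5579 ± 605 CPM in SC. The hormone receptors ESR1 and PGR had 0 to 2 counts in each IN library. The epithelial CDH1 had 1 to 11 counts, while EPCAM had 125 to 218 and GATA3 185 to 370. The leukocyte gene PTPRC was at 1.35 ± 0.140 CPM with SC, 0.332 ± 0.144 CPM with SH2 and 0.242 ± 0.0838 CPM with SH3. CPM is relative to a library's size after trimmed-mean (TMM) scaling, so a lower value is a lower abundance relative to other RNAs, and fewer expressing cells and less RNA per cell cannot be told apart in bulk samples. The labels do not say that replicates came from separate cultures, so p-values measure the spread between these libraries, which may be technical.

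The annotated starts of these genes show the feature that the family is known for. RefSeq sequences (GRCh38.p14) around the start were matched for 25 of the 28 genes; RPS2, RPS15A and RPS20 were not matched. The feature searched was a C at the annotated start base followed by at least 4 bases that are each C or T, on the gene's own strand. It was held by 19 of the 25 genes (76%) and by 28 of 38 large-subunit protein genes (73.7%). Of all 27305 genes with a start sequence 1404 held it (5.14%), and of the 10360 tested here 766 (7.39%). A gene with several annotated starts counted if any of them matched. With a tract allowed to begin up to 10 bases on either side of the start, 23 of the 25 genes (92%) held it. So did 38.4% of all genes and 42.3% of those tested here. The windows below run from 8 bases before the start, which is the ninth base, and capitals mark the longest pyrimidine run that ends at or after the start. Those printed belong to the genes on which the results turn: the 4 whose footprints rose relative to RNA with both hairpins, the 2 matched genes whose footprints fell with both, the 2 whose RNA was not called lower, and RPS10 and RPS26, which changed most in footprints with SH2.
RPS3A (chr4:151099620-151099643, plus strand): cacttccgCCCTTTTggctctctg
RPS18 (chr6:33272067-33272090, plus strand): cttccgCTCTCTCTTCCacaggag
RPSA (chr3:39406712-39406735, plus strand): ccgcctgTCTTTTCCgtgctacct
RPS4X (chrX:72277233-72277256, minus strand): ccagccccaaTTTCTacgcgcacc
RPS28 (chr19:8321488-8321511, plus strand): agcacgtgaCTCCTCTCCgccaga
RPS12 (chr6:132814561-132814584, plus strand): gatgaggCCTCTTTCCCTgccgcc
FAU (chr11:65122119-65122142, minus strand): gCTTCTTCCTCTTTCTCgactcca
RPS14 (chr5:150449724-150449747, minus strand): ctcccaCTCTCTCTTTCCggtgtg
RPS10 (chr6:34426054-34426077, minus strand): tgCTCCTTCCTTTCCagccccggt
RPS26 (chr12:56041910-56041933, plus strand): ataacctcgaTTTTCTTCCgccat
RPS3A, RPS18, RPSA, RPS12, FAU, RPS14 and RPS10 had the tract at the annotated start. RPS28 had it 1 base downstream. RPS4X and RPS26 were among the 6 genes without it at the start, the others being RPS7, RPS15, RPS28 and RPS29. A match to these letters describes the annotated start, which need not be the start used in these cells.

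The first comparison asks how the cytoplasmic RNA of small-subunit proteins stood after loss of fibrillarin. The RNA of 26 of the 28 genes fell with SH2, and the same 26 fell with SH3. None rose with either hairpin in edgeR or DESeq2, and at an unadjusted p under 0.05 in edgeR 26 and 27 differed, all lower. At that level 8273 and 7429 of all 12710 genes differed in either direction. The median log2 change of the 28 was -0.55 with SH2 and -0.61 with SH3, against 0.01 and 0.03 over all 12710 genes tested (edgeR quasi-likelihood test, called at a Benjamini-Hochberg adjusted p under 0.05). Of all genes tested, 30.4% were called lower and 31.1% higher with SH2, and 25.2% lower and 27.8% higher with SH3. The 3 SC libraries served both comparisons, which are therefore not independent, and the changes are given side by side.

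Together the 28 genes took 3.16 ± 0.241% of the counts of the IN libraries in SC (SD, n = 3), 2.29 ± 0.0493% in SH2 and 2.27 ± 0.191% in SH3. The single SC libraries stood at 3.001%, 3.04% and 3.43%, those of SH2 at 2.25%, 2.27% and 2.34%, and those of SH3 at 2.10%, 2.48% and 2.23%. All SC libraries were above all libraries of the hairpins, and SC replicate 3 was the highest. In the RPF libraries the share was 2.67 ± 0.179% in SC, 2.53 ± 0.174% in SH2 and 2.67 ± 0.129% in SH3, and the ranges overlapped.

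**Figure D1:**
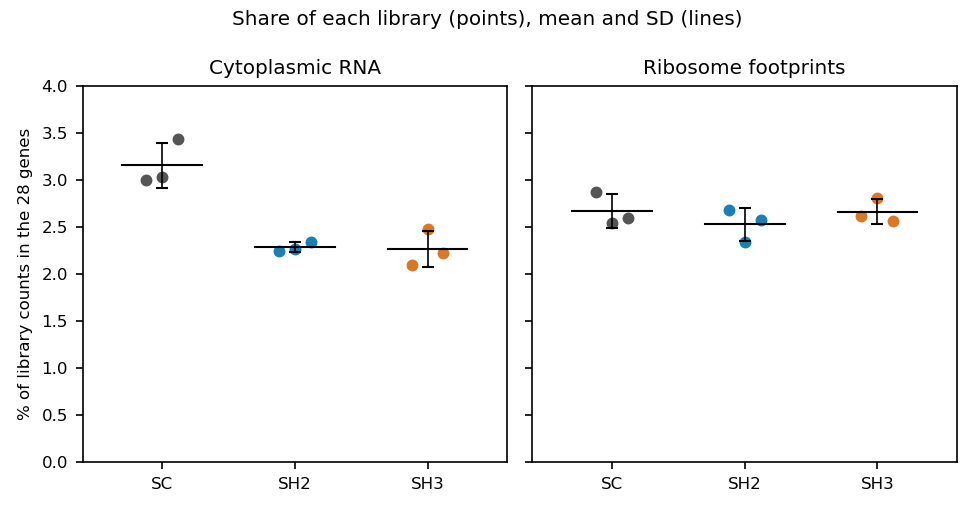
Percent of a library's counts that fell in the 28 small-subunit protein genes (vertical axis), by treatment, for cytoplasmic RNA on the left and ribosome footprints on the right. Points are libraries, and lines are the mean and SD of 3. In RNA the 3 SC libraries lie between 3.001 and 3.43%, above all 6 libraries of the hairpins. In footprints the treatments overlap.

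RPS3A, a body protein near the mRNA exit whose gene carries a box C/D guide RNA in an intron, had the largest fall in RNA. Its IN libraries were at 1865, 1796 and 2094 CPM in SC, at 582, 711 and 587 CPM in SH2 and at 1020, 1109 and 1056 CPM in SH3. The 3 groups did not overlap, with SH2 lowest and SH3 between. The log2 change was -1.61 (SE 0.11, edgeR adjusted p = 5.03e-08) with SH2 and -0.85 (SE 0.10, edgeR adjusted p = 1.74e-05) with SH3.

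RPS24, a body protein that is mutated in some cases of Diamond-Blackfan anaemia, came next. It stood at 1425, 1271 and 1525 CPM in SC, at 739, 798 and 679 CPM in SH2, and at 792, 824 and 789 CPM in SH3, so that both hairpins lay below SC without overlap. The log2 changes were -0.93 (SE 0.10) and -0.81 (SE 0.10), with edgeR adjusted p = 2.76e-06 and 1.61e-05. RPS18, a head protein that contacts the large subunit, had 1855, 1734 and 1871 CPM in SC, 929, 1047 and 921 CPM in SH2, and 1130, 1266 and 1121 CPM in SH3. All SH2 libraries were below all SH3 libraries, and both below SC. Its log2 changes were -0.91 (SE 0.10) and -0.64 (SE 0.09), with edgeR adjusted p = 2.33e-06 and 8.87e-05.

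The 2 genes whose RNA was not called were FAU and RPS14. FAU encodes a fusion of a ubiquitin-like protein with the small-subunit protein eS30. Its IN libraries were at 558, 461 and 535 CPM in SC, at 579, 508 and 582 CPM in SH2 and at 429, 557 and 461 CPM in SH3, which overlapped throughout. Its log2 changes were 0.10 (SE 0.11) and -0.10 (SE 0.11), with edgeR adjusted p = 0.451 and 0.47. RPS14, a body protein whose reduced dose underlies the anaemia of the 5q- syndrome, stood at 1382, 1324 and 1484 CPM in SC, 1291, 1210 and 1327 CPM in SH2, and 1086, 1313 and 1154 CPM in SH3. SH2 overlapped SC, and SH3 lay just below it. On the log2 scale the changes were -0.13 (SE 0.10) and -0.24 (SE 0.10), with edgeR adjusted p = 0.26 and 0.0539. RPS14 was called lower with SH3 in 5 of 12 alternative analyses.

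RPS6, the substrate of the S6 kinases and the third of the genes with the smallest mean fall, was at 1417, 1351 and 1527 CPM in SC, 1143, 1215 and 1123 CPM in SH2, and 998, 1276 and 1158 CPM in SH3. Its groups did not overlap with SC, and its log2 changes were -0.30 (SE 0.10) and -0.32 (SE 0.10), with edgeR adjusted p = 0.0201 and 0.0169. The RNA calls of RPS2, RPS6, RPS9, RPS15 and RPS19 with SH2 were the ones lost in 1 to 4 of 12 alternatives. With SH3 the RNA call of RPS2 held in 8 of 12, and was lost without SC replicate 3 (edgeR adjusted p = 0.108). Without SC replicate 3 the count of called genes was 21 with SH2 and 24 with SH3.

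By position in the subunit, RNA of all 13 head genes fell with both hairpins, with medians of -0.54 and -0.56. Of the 15 genes of the body, 13 fell with each, with medians of -0.59 and -0.65. The 6 members with a box C/D guide RNA in an intron (RPS3, RPS3A, RPS12, RPS13, RPS20 and RACK1) all fell with both hairpins, with medians of -0.57 and -0.60, beside medians of -0.55 and -0.61 in the other 22 members. The 4 members that are ubiquitinated when ribosomes collide (RPS2, RPS3, RPS10 and RPS20) also fell with both.

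Library by library, the SH2 values lay below all SC values in 25 of the 28 genes, and the SH3 values in 27. Of all 12710 genes tested, 31.9% lay below SC without overlap with SH2 and 29.6% with SH3. The exceptions were RPS14, RPS19 and FAU with SH2 and FAU with SH3. RPS19, the protein most often mutated in Diamond-Blackfan anaemia, was called lower with SH2 (log2 -0.35, SE 0.12, edgeR adjusted p = 0.0193), although its highest SH2 library, at 1320 CPM, was above its lowest SC library, at 1309 CPM.

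**Figure D2:**
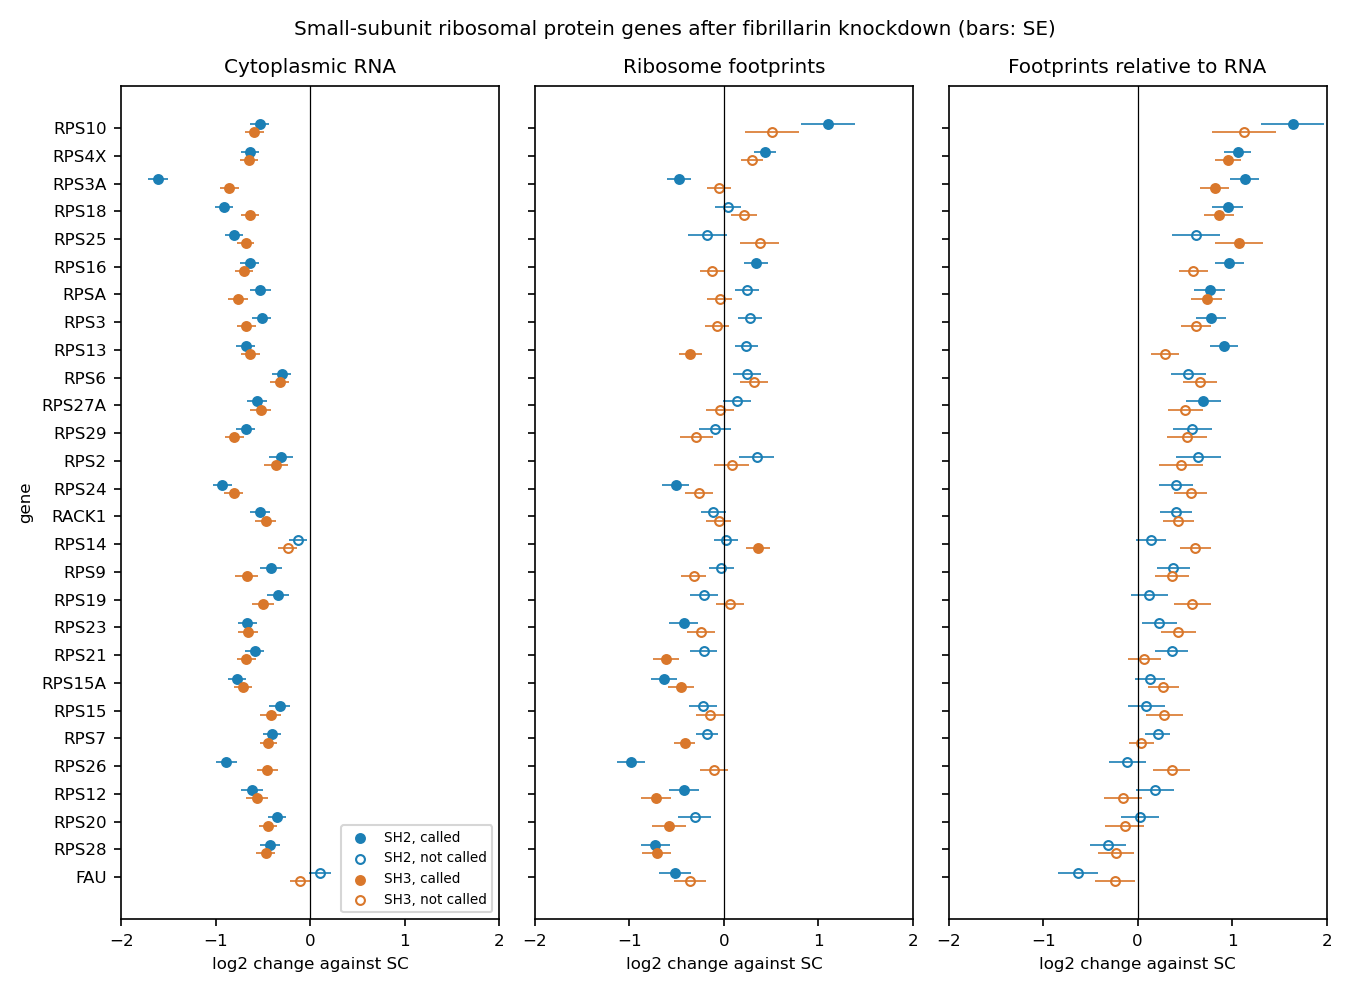
Log2 change against SC of each of the 28 genes (rows, ordered by the mean change in footprints relative to RNA) in cytoplasmic RNA, ribosome footprints and footprints relative to RNA. Blue is SH2 and orange SH3; filled points were called by edgeR at an adjusted p under 0.05, open points were not, and bars are SEs. In RNA 26 genes are filled and below 0 with both hairpins. In footprints the points lie on both sides of 0, and relative to RNA the filled points are all above 0.

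The second comparison is of ribosome footprints, which count the ribosomes on these mRNAs. Here the genes did not move as a group. With SH2, 8 fell and 3 rose (median log2 change -0.14). With SH3, 7 fell and 1 rose (median -0.11). Over all 10345 genes tested the medians were -0.00 and -0.01, and 23.2% were called lower and 21% higher with SH2, and 19% lower and 16.9% higher with SH3. The share of members called lower was close to that of all genes and the share called higher was smaller; neither difference was tested. RPS28, RPS12 and RPS15A fell with both hairpins, 0 rose with both, 13 were called with 1 hairpin only and 12 with neither. Of all 10345 genes, 12% fell with both, 10.8% rose with both, 32.7% were called with 1 only and 43.6% with neither, and the members' share of genes lower with both was 10.7%. Whether a gene called with 1 hairpin differed between hairpins is tested further on.

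RPS28, a small head protein at the mRNA exit, had the lowest mean change in footprints. Its RPF libraries were at 608, 531 and 623 CPM in SC, at 428, 279 and 359 CPM in SH2, and at 327, 360 and 391 CPM in SH3. All 6 libraries of the hairpins were below SC. The log2 changes were -0.73 (SE 0.15) and -0.71 (SE 0.15), with edgeR adjusted p = 0.00126 and 0.00217.

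RPS12, a head protein, stood at 509, 332 and 401 CPM in SC, 338, 309 and 283 CPM in SH2, and 283, 244 and 229 CPM in SH3. SH2 overlapped SC, whose replicate 1 was well above the other 2, while SH3 did not. Its log2 changes were -0.42 (SE 0.16) and -0.72 (SE 0.16), with edgeR adjusted p = 0.039 and 0.00236. The SH2 call of RPS12 held in 7 of 13 alternatives and was lost without SC replicate 1 (edgeR adjusted p = 0.203). RPS15A fell by 0.63 and 0.45 on the log2 scale (SE 0.14 for both), with edgeR adjusted p = 0.00158 and 0.0179, and its hairpin libraries did not overlap with SC.

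RPS26, which lies at the mRNA exit and contacts bases upstream of the start codon, fell with SH2. Its RPF libraries were at 841, 709 and 739 CPM in SC, at 441, 350 and 370 CPM in SH2 and at 739, 820 and 572 CPM in SH3. SH2 was below both other groups, and SH3 overlapped SC. The log2 change was -0.98 (SE 0.15, edgeR adjusted p = 9.76e-05) with SH2 and -0.10 (SE 0.15, edgeR adjusted p = 0.619) with SH3.

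RPS10, RPS4X and RPS16 rose with SH2. RPS10, a head protein that ZNF598 ubiquitinates on collided ribosomes, had 46.9, 137 and 123 CPM in the RPF libraries of SC, 158, 235 and 257 CPM in SH2, and 124, 169 and 136 CPM in SH3. SH2 was above SC, and SH3 overlapped it. The SC value of replicate 1 was the lowest of the 9. On the log2 scale the changes were 1.11 (SE 0.29) and 0.51 (SE 0.29), with edgeR adjusted p = 0.00541 and 0.185. It rested on 212 to 1008 counts in a library.

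RPS4X, an X-linked protein of the body, was at 871, 819 and 846 CPM in SC, at 1232, 1151 and 1048 CPM in SH2, and at 1043, 1059 and 1007 CPM in SH3. All libraries of both hairpins were above SC. The log2 changes were 0.44 (SE 0.12) and 0.29 (SE 0.12), with edgeR adjusted p = 0.00676 and 0.0606, so that only the first was called. RPS6 had 1198, 1406 and 1637 CPM in SC, 1847, 1572 and 1601 CPM in SH2 and 1582, 2100 and 1614 CPM in SH3, which overlapped. Its log2 changes were 0.24 (SE 0.15) and 0.32 (SE 0.15), with edgeR adjusted p = 0.195 and 0.102.

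The only member that rose in footprints with SH3 was RPS14, at 977, 778 and 845 CPM in SC and 1058, 1250 and 1033 CPM in SH3. Its log2 change was 0.36 (SE 0.13, edgeR adjusted p = 0.0395). The other genes that fell with SH2 were RPS3A, FAU, RPS23 and RPS24, by 0.43 to 0.52 on the log2 scale. With SH3 the other genes that fell were RPS21, RPS20, RPS7 and RPS13, by 0.35 to 0.61. The SH2 values lay below all SC values in 8 genes and above all in 6, and the SH3 values below in 7 and above in 2. Over all genes tested 26.3% lay below and 25% above SC with SH2, and 23.9% below and 22.5% above with SH3, so that the members' counts below SC were near the background.

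These counts of footprint calls changed when 1 library was left out. Genes lower with SH2 numbered 5 without SH2 replicate 1, 4 without replicate 2 and 5 without replicate 3. Calls over all genes in either direction were then 4121, 3740 and 3912, in place of 4576. Genes lower with SH3 numbered 4 without SH3 replicate 3, where calls over all genes were 2839 in place of 3719. The call of RPS14 was lost without SC replicate 3 or SH3 replicate 2. SH2 and SC libraries of the same number deviated together in both library kinds, and with the number as a block RPS2 was also called higher with SH2 (log2 0.35, edgeR adjusted p = 0.0258).

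The third comparison sets footprints against RNA, as translational efficiency: the log2 change of footprints minus that of RNA, tested in 1 edgeR fit over all 18 libraries. With SH2, 9 members rose: RPS3 at the mRNA entry, RPS10, RPS16, RPS18 and RPS27A, also of the head, and RPS3A, RPS4X, RPS13 and RPSA of the body. With SH3, 5 rose: RPS25, RPS18, RPS3A, RPS4X and RPSA. None fell in edgeR or DESeq2. At an unadjusted p under 0.05 in edgeR, 18 members differed with SH2, of which FAU was lower, and 16 differed with SH3. At that level 2248 and 1574 of all 12531 genes differed in either direction. The median change of the 28 was 0.41 with SH2 and 0.48 with SH3, beside -0.02 and -0.04 over all 12531 genes tested. Of all genes tested 1.44% rose and 2.46% fell with SH2, and 0.375% rose and 0.311% fell with SH3.

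The estimate was above 0 in 25 of the 28 genes with SH2 and in 24 with SH3. RPSA, RPS18, RPS3A and RPS4X rose with both hairpins, 6 were called with 1 only and 18 with neither. Over all genes 0.231% rose with both and 3.76% were called with 1 only. The RNA of those 4 fell with both hairpins, and the footprints of RPSA and RPS18 were called in neither direction. The ratios given next divide the footprint CPM by the RNA CPM of the library with the same treatment and number. The ratio is relative, and its level has no absolute meaning. The numbers are not shown to join RNA and footprints of 1 lysate, so the ratios describe the groups, and the test does not use them.

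For RPS3A the ratio was 0.534, 0.638 and 0.525 in SC, 1.52, 0.966 and 1.31 in SH2, and 0.990, 0.986 and 0.967 in SH3. Both hairpins were above SC in every library. The change in translational efficiency was 1.13 (SE 0.16, edgeR adjusted p = 0.00047) with SH2 and 0.81 (SE 0.16, edgeR adjusted p = 0.014) with SH3. In RPF libraries RPS3A stood at 996, 1146 and 1099 CPM in SC, 885, 687 and 767 CPM in SH2 and 1010, 1093 and 1021 CPM in SH3. With SH2 its footprints therefore fell, by 0.47 on the log2 scale (SE 0.13, edgeR adjusted p = 0.00721), by less than its RNA.

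For RPS4X the ratio was 1.12, 1.05 and 0.964 in SC, 2.51, 2.01 and 2.08 in SH2, and 2.12, 1.94 and 1.97 in SH3. SC lay apart from both hairpins, whose libraries overlapped with each other. Its change was 1.06 (SE 0.14, edgeR adjusted p = 0.000442) with SH2 and 0.95 (SE 0.14, edgeR adjusted p = 0.0016) with SH3. Its RNA was at 810 ± 57.6 CPM with SC (SD, n = 3), and at 522 ± 43.6 and 517 ± 28.1 CPM with the hairpins. RPS4X kept its call with both hairpins in all 14 alternatives run.

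For RPS18 the ratio was 0.648, 0.913 and 0.762 in SC, 1.56, 1.35 and 1.61 in SH2, and 1.24, 1.45 and 1.47 in SH3. Again no library of a hairpin reached down to SC. The changes were 0.95 (SE 0.16) and 0.87 (SE 0.16), with edgeR adjusted p = 0.00244 and 0.0122. Its footprints were at 1404 ± 191 CPM with SC (SD, n = 3), 1447 ± 32.8 CPM with SH2 and 1627 ± 216 CPM with SH3.

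RPSA, the laminin receptor precursor that sits at the mRNA exit, had ratios of 0.308, 0.291 and 0.268 in SC, 0.507, 0.502 and 0.469 in SH2, and 0.444, 0.495 and 0.476 in SH3. The hairpins were above SC in all libraries. Its changes were 0.76 (SE 0.17) and 0.73 (SE 0.17), with edgeR adjusted p = 0.0137 and 0.0404. With SH3 the call held in 7 of 14 alternatives for RPSA, in 8 for RPS25, in 9 for RPS3A and in 11 for RPS18, and each was lost without SH3 replicate 2. With SH2 the call of RPS27A held in 6 of 14.

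RPS10 had the largest change with SH2. Its ratio was 0.137, 0.417 and 0.331 in SC, 0.651, 0.997 and 1.07 in SH2, and 0.587, 0.635 and 0.633 in SH3. The 3 groups did not overlap, with SC lowest. The changes were 1.64 (SE 0.33) and 1.12 (SE 0.34), with edgeR adjusted p = 0.00881 and 0.131, so that only the first was called. The SH2 call was lost without SH2 replicate 3 (edgeR adjusted p = 0.0693).

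At the other end stood FAU, RPS28 and RPS20, none of them called. FAU had ratios of 0.946, 1.44 and 1.56 in SC, 0.819, 0.837 and 0.887 in SH2 and 1.05, 0.915 and 1.34 in SH3. SH2 was below SC, and SH3 overlapped it. Its change was -0.63 (SE 0.21, edgeR adjusted p = 0.0997) with SH2 and -0.24 (SE 0.21, edgeR adjusted p = 0.697) with SH3. RPS28 had ratios of 0.909, 0.957 and 0.960 in SC, 0.949, 0.619 and 0.730 in SH2 and 0.769, 0.722 and 0.912 in SH3, which overlapped, with changes of -0.31 (SE 0.19) and -0.23 (SE 0.19). RPS20, another ZNF598 target in the head, had ratios of 0.326, 0.198 and 0.217 in SC, 0.260, 0.250 and 0.259 in SH2 and 0.286, 0.193 and 0.212 in SH3, also overlapping. Its changes were 0.02 (SE 0.20) and -0.13 (SE 0.21).

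**Figure D3:**
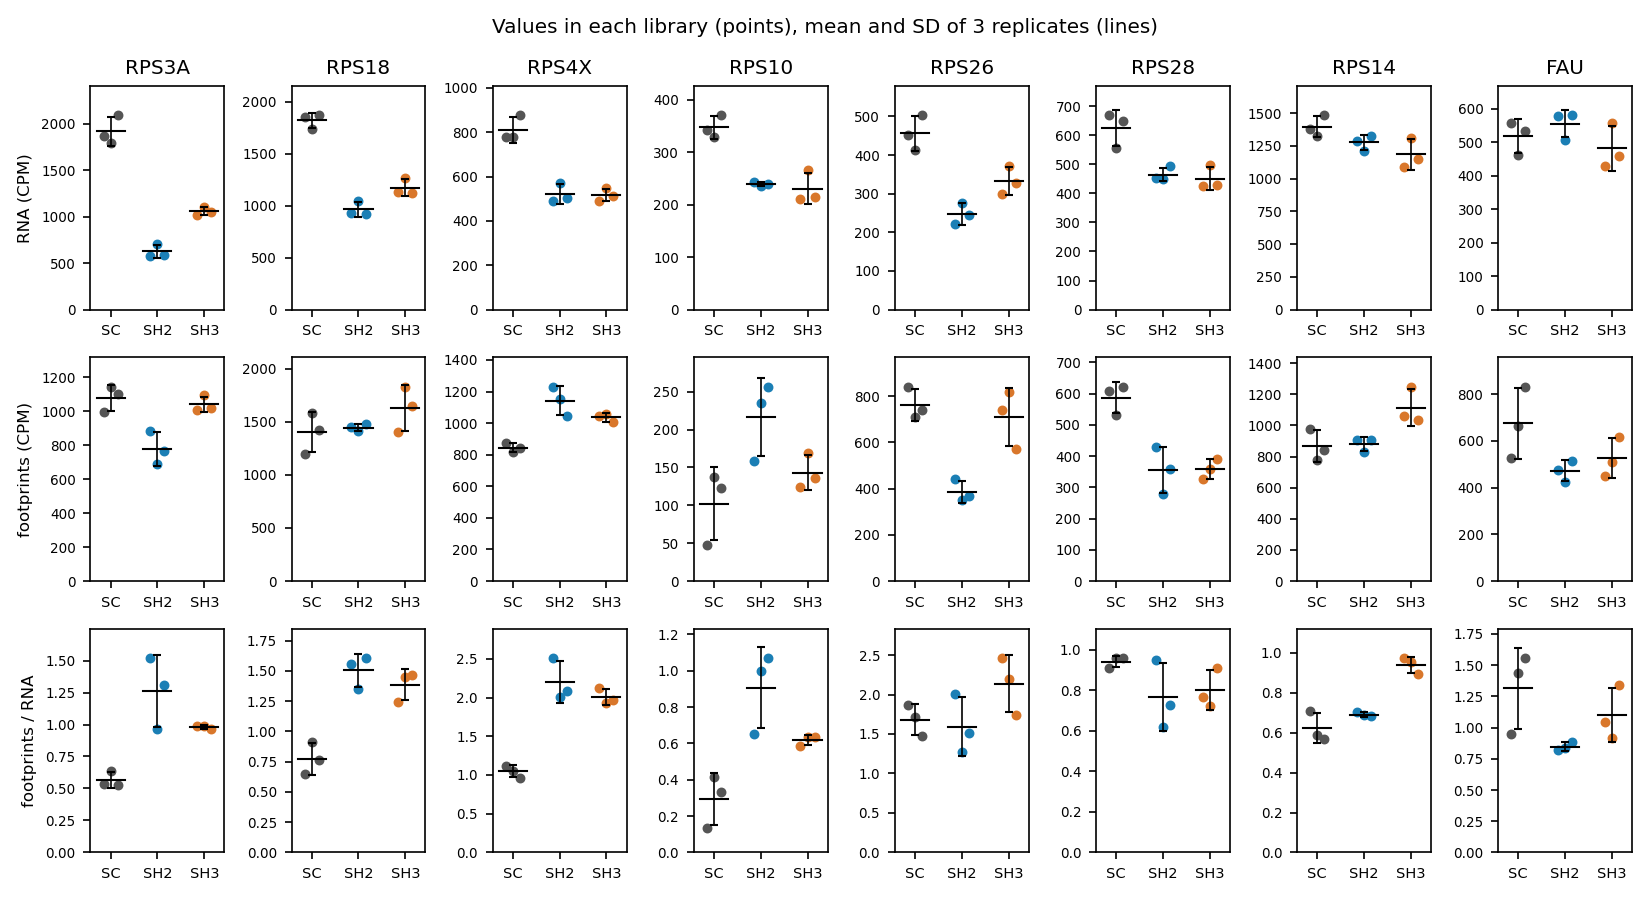
Cytoplasmic RNA (top row, CPM), ribosome footprints (middle row, CPM) and their ratio (bottom row) in each library of SC, SH2 and SH3 for 8 genes. Points are libraries and lines the mean and SD of 3; each panel has its own vertical axis from 0, so levels are read within a gene. RPS3A and RPS18 fall in RNA while their ratio is above SC in every hairpin library. FAU shows no separation in RNA.

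The head held 5 of the 9 genes called with SH2 and 2 of the 5 called with SH3, with medians of 0.58 and 0.52 over its 13 genes. The body held 4 and 3, with medians of 0.38 and 0.43 over 15. Of the 6 hosts of box C/D guide RNAs, 3 rose with SH2 and 1 with SH3 (medians 0.59 and 0.36). Among the other 22 members 6 and 4 rose (medians 0.39 and 0.51), and the difference was not tested. By start sequence, the 19 members with a tract at the annotated start had medians of 0.54 and 0.58, and the 6 without it 0.15 and 0.32. Over all ribosomal protein genes with a matched start, the 48 with the tract had medians of 0.57 and 0.51 and the 17 without it 0.50 and 0.52. RPS4X, called with both hairpins, was among the 6 members without it. Genes outside the ribosome with the same start, 706 tested, had medians of 0.03 and -0.00.

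The count of calls with SH3 is sensitive to single libraries. Leaving out SC replicate 1, 2 or 3 gave 9, 3 and 1 calls, and leaving out SH3 replicate 1, 2 or 3 gave 2, 1 and 2. Over all genes the calls were then 244, 72 and 10, and 18, 11 and 31, in place of 86. The median stayed between 0.39 and 0.53. With SH2 the count was 6 to 10 and the median 0.30 to 0.51, and FAU was called lower without SC replicate 1.

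**Figure D4:**
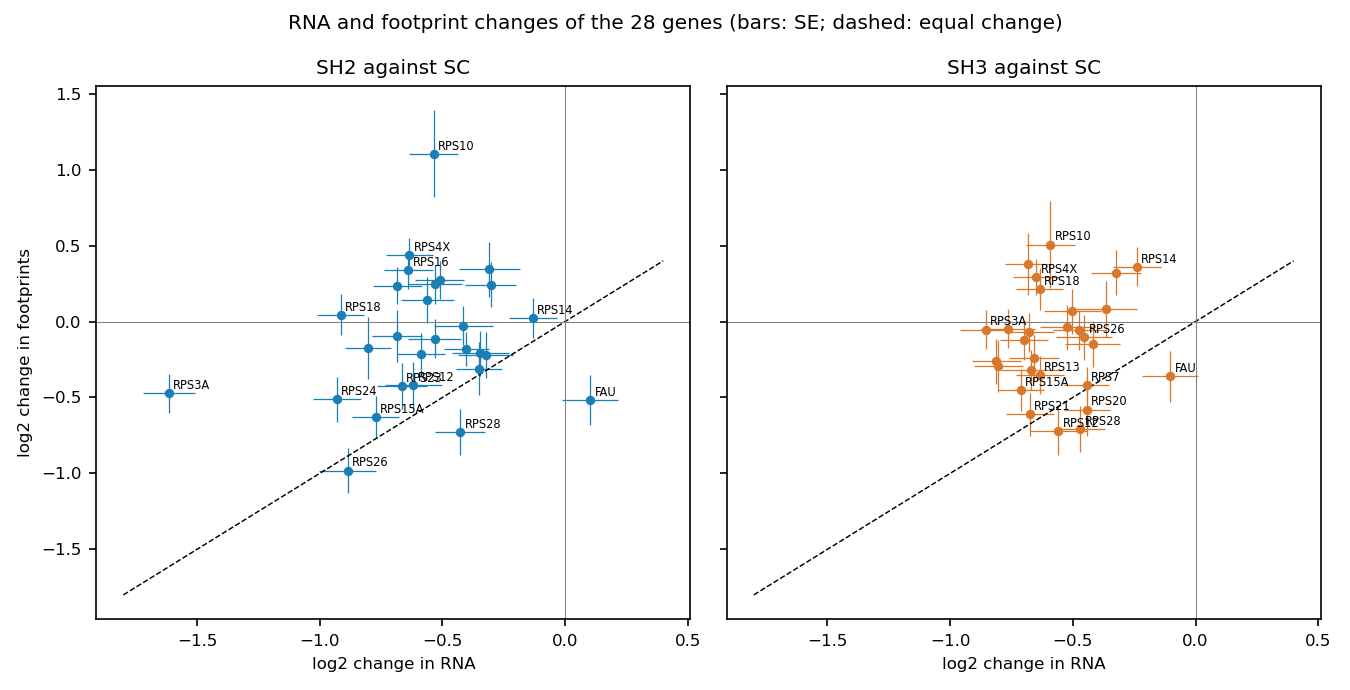
Log2 change in footprints (vertical) against log2 change in RNA (horizontal) for the 28 genes, SH2 on the left and SH3 on the right; bars are SEs, the dashed line marks equal change, and names are given for called or described genes. With SH2, 25 genes lie above the line, and with SH3, 24. FAU and RPS28 lie below it in both panels.

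The fourth comparison asks where the hairpins differed from each other. In RNA, 3 members were lower with SH2 than with SH3 and 0 higher, while 20.4% of all genes were called lower and 18.9% higher. They were RPS3A, by a log2 difference of -0.76 (SE 0.10, edgeR adjusted p = 8.47e-05), RPS26, by -0.43 (SE 0.11, edgeR adjusted p = 0.00853), and RPS18, by -0.28 (SE 0.09, edgeR adjusted p = 0.0307). RPS26 stood at 452, 414 and 503 CPM in the IN libraries of SC, at 220, 276 and 244 CPM in SH2 and at 300.2, 372 and 328 CPM in SH3, without overlap. Without SH3 replicate 2 only RPS3A was called lower.

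In footprints 2 members were lower with SH2 than with SH3 and 2 higher, while 11.6% of all genes were called lower and 12.1% higher. RPS26 differed by -0.88 (SE 0.15, edgeR adjusted p = 0.000676) and RPS3A by -0.42 (SE 0.13, edgeR adjusted p = 0.0262). Those higher with SH2 were RPS13, a body protein and guide RNA host, and RPS16, a head protein whose tail reaches the P site. RPS13 was at 1266, 1231 and 1038 CPM in SC, 1410, 1337 and 1421 CPM in SH2 and 940.2, 985 and 841 CPM in SH3, so that the hairpins lay on opposite sides of SC. It differed by 0.59 (SE 0.12, edgeR adjusted p = 0.00301). RPS16 was at 793, 768 and 760.4 CPM in SC, 916, 960.4 and 1066 CPM in SH2 and 626, 719 and 784 CPM in SH3, and differed by 0.47 (SE 0.13, edgeR adjusted p = 0.0135). Either count was 1 without SH2 replicate 3 or SH3 replicate 2. The lower count was also 1 without SH2 replicate 2, and the higher count without SH3 replicate 1.

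In translational efficiency 0 members differed between the hairpins in edgeR, where 2 of 12531 genes (0.016%) did in either direction. At an unadjusted p under 0.05 in edgeR 5 members differed, beside 1471 of all genes. DESeq2 called 1 member, where it called 229 of all genes. The largest was that of RPS13, at 0.62 (SE 0.15, edgeR adjusted p = 0.105), whose ratio was 1.48, 1.49 and 1.197 in SC, 2.64, 2.31 and 3.01 in SH2 and 1.80, 1.65 and 1.61 in SH3.

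Other genes of the ribosome and its assembly were read from lists. Among the 47 genes of the large subunit, RNA of 45 fell with SH2 and of 43 with SH3 (medians -0.68 and -0.56). Translational efficiency rose in 23 and 12 of them and fell in 0 (medians 0.58 and 0.57). No difference between the large-subunit genes and the 28 members was tested.

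The 14 factors that mature or export the small subunit had mixed RNA changes: 7 rose and 3 fell with SH2, and 7 rose and 0 fell with SH3, beside the shares of all genes given above (31.1% and 27.8% higher). In footprints 4 rose and 5 fell with SH2, and 3 rose and 2 fell with SH3. No difference from the 28 members was tested. LTV1, an assembly factor of the immature head, rose by 0.71 and 1.10 on the log2 scale (edgeR adjusted p = 0.00248 and 0.000123), with 20.9 ± 5.89 CPM for SC (SD, n = 3), 34.1 ± 4.43 CPM for SH2 and 44.6 ± 3.22 CPM for SH3. NOP14, a nucleolar processome protein, rose by 0.77 and 0.75. RIOK2, a kinase of late maturation, rose by 0.76 and 0.51, and NOB1, the nuclease that makes the final 3′ end of 18S RNA, by 0.66 and 0.60. In translational efficiency 1 of the 14 fell with SH2 and 0 with SH3.

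Of the 4 chaperones of single small-subunit proteins, 2 rose in RNA with SH2 and 3 with SH3, beside 31.1% and 27.8% of all genes. PDCD2L, which binds RPS2, rose in RNA by 0.54 and 0.66, and RPS19BP1, which binds RPS19, by 0.46 and 0.36. Footprints of the 4 rose in 0 and fell in 2 with SH2, and 0 were called with SH3. Their translational efficiency rose in 0 and fell in 2 with SH2, where 2.46% of all genes fell. With SH3 it was called in 0. Of 11 enzymes that modify small-subunit proteins, 3 rose and 5 fell in RNA with SH2, and 2 rose and 3 fell with SH3. Over all genes 31.1% rose and 30.4% fell with SH2, and 27.8% rose and 25.2% fell with SH3. Footprints of the 11 rose in 1 and fell in 5 with SH2, and rose in 1 and fell in 3 with SH3. Translational efficiency rose in 0 and fell in 4 with SH2, and was called in 0 with SH3. No difference from all genes was tested. The ubiquitin ligase ZNF598 had the largest change in RNA. Its IN libraries were at 86.5, 90.4 and 87.5 CPM in SC, 219, 233 and 263 CPM in SH2 and 192, 251 and 217 CPM in SH3, a rise of 1.43 and 1.32 (edgeR adjusted p = 1.76e-07 and 8.09e-07). NTMT1, which methylates the start of RPS25, rose by 0.52 and 0.53. RPS6KB1, the kinase of RPS6, fell by 0.76 and 0.51, and USP10, which removes ubiquitin from small-subunit proteins, by 0.29 and 0.40.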

How the data were processed

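The authors deposited 1 table of the whole series with read counts per gene for 18 libraries. The count columns are raw whole numbers as deposited, and the signal columns are, per the file headers, the counts after DESeq2 scaling by the authors. The table also holds log2 fold changes and p-values of the authors' DESeq2 comparisons, per the file headers. The submitters' processing notes name Bowtie 1.2.2 and DESeq2. The build, annotation, counting rule and the handling of reads with several matches are not given in the sources used here. Ribosomal protein genes have many processed pseudogenes, so reads shared with these copies could have been dropped or moved, and the levels are uncertain to that extent.

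Counts were tested with the quasi-likelihood test of edgeR 4.0.16 (R 4.3.3), after filterByExpr and TMM scaling: 1 fit for the 9 IN libraries, 1 for the 9 RPF libraries and 1 for all 18 with an interaction contrast for translational efficiency. P-values were two-sided and adjusted by the Benjamini-Hochberg method over all genes tested, and called means under 0.05. SEs are the log2 change divided by the square root of F. CPM was scaled by TMM within a library kind. The fits were also run on simulated counts in which part of the genes had a log2 change of 1. Of these genes the SH2 comparison recovered 100% in RNA (12551 genes fitted), 98% in footprints (10203) and 80.5% in translational efficiency (12342). The SH3 comparison recovered 99.5%, 96% and 77.5%. False calls were 12, 8 and 11 with SH2, and 9, 5 and 8 with SH3. Recovery at smaller log2 changes, such as the members' medians, was not tested. Start sequences came from RefSeq, GRCh38.p14.

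The members and lists were chosen with earlier results of these data known. Genes given per library were the 3 highest and 3 lowest by mean change in each measure and up to 4 called between the hairpins; from other lists, up to 4 genes called in both hairpins in 1 direction, plus FBL. RPSA, RPS15A, RPS19 and other members named beside counts were added after their values were seen. SC and SH2 libraries of the same number deviated together (r = 0.375, 0.381 and 0.427 in IN and 0.315, 0.325 and 0.276 in RPF). This pairing comes from the data alone. The main fits did not use it, and it entered only through the replicate block named below. For SH3, and between IN and RPF, the numbers were not shown to pair. Alternatives were other scalings, no filter, DESeq2 1.42.0, a replicate block, RPF libraries thinned to the lowest total, and leaving out each replicate. A further list of genes was analysed and is not reported here.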

Additional observations from a re-analysis of the deposited data

Results flagged for a closer look

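The tested values of 5 of the 28 members differed between the hairpins. Over all genes 20.4% were called lower and 18.9% higher in RNA with SH2 than with SH3. In footprints 11.6% were called lower and 12.1% higher. No difference between the members and all genes was tested. In RNA, the log2 difference of SH2 from SH3 was -0.76 for RPS3A, -0.43 for RPS26 and -0.28 for RPS18 (edgeR adjusted p = 8.47e-05, 0.00853 and 0.0307). The difference of RPS3A kept its call in all 12 alternatives, that of RPS26 in 11 and that of RPS18 in 7; the last 2 were lost without SH3 replicate 2 (edgeR adjusted p = 0.0508 and 0.131).

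In footprints the difference was 0.59 for RPS13, 0.47 for RPS16, -0.88 for RPS26 and -0.42 for RPS3A (edgeR adjusted p = 0.00301, 0.0135, 0.000676 and 0.0262). RPS13 and RPS26 kept their calls in all 13 alternatives, RPS16 in 10 and RPS3A in 9. RPS16 was lost without SH3 replicate 1 (edgeR adjusted p = 0.0719) and RPS3A without SH2 replicate 2 (edgeR adjusted p = 0.123). RPS26 is thus lower with SH2 than with SH3 in both RNA and footprints, with a translational efficiency that was called with neither hairpin.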

How the results depend on the processing

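No called value changed sign in any alternative. With plain library totals the median change of all genes in RNA was 0.11 with SH2 and 0.12 with SH3, 4582 genes were called higher and 3305 lower with SH2 in place of 3947 and 3858, and 4267 higher and 2671 lower with SH3 in place of 3529 and 3203. The members' median in RNA was then -0.45 with SH2, with 22 and 24 members lower. Members higher in footprints with SH3 were 3 with plain totals, 3 with no filter, 2 with DESeq2 and 4 with the replicate block. The calls over all genes, in either direction, were then 3776, 4072, 3544 and 4269, in place of 3719. Between the hairpins in footprints, 4 members were lower with plain totals (median -0.000944), and 4 were higher with no filter, 4 with DESeq2 and 5 with the replicate block. There the calls over all genes were 2542, 2814, 2325 and 3019 in the same order, in place of 2459. Members higher in translational efficiency with SH3 were 3 with plain totals, 9 with DESeq2 and 2 with a replicate block by treatment and number. That block pairs RNA and footprints of the same number, which were not shown to share a lysate. All genes called in either direction were 70, 355 and 23, in place of 86. The cause was not tested.

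Leaving out 1 replicate gave 21 to 26 members lower in RNA with SH2 and 24 to 27 with SH3. In footprints it gave 4 to 9 lower with SH2 (median -0.21 to -0.015), and 4 to 7 lower and 0 to 2 higher with SH3. In translational efficiency it gave 6 to 10 higher and 0 to 1 lower with SH2, and 1 to 9 higher with SH3. Between the hairpins it gave 1 to 3 lower and 0 to 1 higher in RNA, and 1 to 2 lower and 1 to 2 higher in footprints (median 0.010 to 0.137). Over all genes, calls in translational efficiency ran from 110 to 555 with SH2 and from 10 to 244 with SH3. In RNA the calls over all genes ran from 6893 to 7642 with SH2 and from 5661 to 6415 with SH3. In footprints they ran from 3740 to 4807 with SH2 and from 2645 to 3771 with SH3. Between the hairpins they ran from 3726 to 5080 in RNA and from 1541 to 2104 in footprints.

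The replicate block changed no other count of member calls by over 1.5 times. Deviations of same-numbered IN and RPF libraries of 1 treatment correlated at -0.509 to 0.547. In SC and SH2 the RNA of replicate 1 correlated best with the footprints of replicate 2 (r = 0.613 and 0.591), so not every library correlated best with its own number. The shallowest footprint library was SH3 replicate 1, with 1662705 counts.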

Other observations

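In the authors' deposited table the RD log2 fold changes, a measure with no further definition in the sources used here, were the same for SH2 and SH3 in 17017 of 17017 genes. In the authors' deposited table, RD correlated across 10343 genes with the footprint change minus the RNA change at r = 0.577 for SH2 and 0.998 for SH3; genes are not independent replicates, and no p is given. For RPS13 the authors' deposited table gives an RD of 0.29 for both hairpins, where the edgeR fit gave 0.91 for SH2 and 0.29 for SH3. The RD columns were used in no comparison.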
